A study of Homo sapiens with 4 samples.

Results

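The genes described here are 42 nucleolar ribosome biogenesis genes, chosen by symbol, of the 58302 genes listed for HepG2 cells. HepG2 is a hepatocellular carcinoma line, here of wild-type genotype. The cells received melatonin at 1 mM or its solvent DMSO for 24 h or 48 h, and mRNA was sequenced from 1 library of each condition, 4 libraries in all. The comparisons ask how the transcript levels differed between melatonin and DMSO at each time, and between the times within each treatment. No condition was repeated, so the differences below carry no replicate error and no p-value is given. All 42 symbols were found, each once, and all 42 had an FPKM of at least 1 in every library. FPKM counts fragments per kilobase of the gene and per unit of library size, so it allows levels of different genes to be compared.

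Ribosomes are made in the nucleolus. RNA polymerase I copies the ribosomal DNA into a long precursor, small nucleolar ribonucleoproteins (snoRNPs) guide the chemical modification and cutting of that RNA, and assembly factors fold it with ribosomal proteins into the small and large subunits. The pathway is a main consumer of a growing cell's resources, and the transcription factor MYC is known to drive many of its genes through the E-box, a short DNA element found in their promoters.

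The members were sorted by role into 6 genes of RNA polymerase I and its initiation factors, 8 snoRNP genes, 12 of small subunit assembly, 12 of large subunit assembly and 4 abundant nucleolar regulators. Where 4 values follow each other they are those of the DMSO library and then the melatonin library of 24 h, followed by the same pair of 48 h. The reads on genes numbered between 21616676 and 23086025 per library. Mitochondrial genes took 20.0, 16.6, 9.77 and 11.9% of them, and the size by which the FPKM were scaled is not described in the study's methods. Rescaling to TPM (the FPKM of each library brought to the same total) moved the median log2 fold change of all genes by more than 0.1 in 3 of the 4 comparisons, so levels, their order and directions are those of the deposited FPKM unless a scaling is named, and the members whose direction held under all 5 scalings are given for each comparison. The scalings were the deposited FPKM, TPM, centring on the median of all genes, and library sizes set to the summed reads with or without mitochondrial genes. The 7 hepatocyte markers checked, ALB and HNF4A among them, were at 34.9 FPKM or more in every library. Of 5 markers of other cell types, PTPRC, PECAM1, COL1A1 and DES were under 1 FPKM in every library, whereas LYZ, the lysozyme gene, was at 729 to 1070 FPKM.

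Members differed far more from each other than between libraries. NCL and NPM1, which encode the abundant nucleolar proteins nucleolin and nucleophosmin, were the highest at both times, at 226 FPKM for NCL in DMSO 24 h and 284 FPKM for NPM1 in melatonin 48 h. The lowest was PPAN, a large subunit factor, at 2.70 FPKM in DMSO 24 h, or DDX10, a helicase of small subunit assembly, at 2.94 FPKM in DMSO 48 h. The median member stood at 19.2, 19.1, 18.2 and 15.4 FPKM in the 4 libraries. Within a member the highest library was 1.47 times the lowest in the median. The narrowest range was that of RRN3, the factor that recruits RNA polymerase I to the ribosomal DNA, at 1.03 times, and the widest that of LAS1L, which takes part in cutting the spacer of the precursor RNA, at 2.19 times. Between 128 and 29810 reads lay behind each value, so that counting error was small for most members. All intervals given are exact 95% intervals that cover counting error only.

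The promoters of some of these genes held a feature that the choice of members did not use. The canonical E-box, CACGTG, which reads the same on both strands, was searched from 250 bases before to 50 bases after each transcript start in the RefSeq promoters of GRCh38.p14. It was found in 16 of the 36 members that the promoter set holds, or 44.4%. The share was 8.77% of all 27305 genes of that set, 10.9% of its protein-coding genes and 12.8% of the protein-coding genes that reached 1 FPKM in a library. All 16 members had an E-box that began within 50 bases of the start. By role the E-box was found in none of 5 genes of RNA polymerase I and its initiation factors, 3 of 6 snoRNP genes, 7 of 11 of small subunit assembly, 4 of 10 of large subunit assembly and 2 of 4 regulators. The sequences show its surroundings in the 11 members with a 30-base window whose 4 values are given below. The start is not marked in them, and the distance from it is given after the sequences. Each window is on the gene's own strand, 5′ to 3′, with the E-box in capitals.
FBL: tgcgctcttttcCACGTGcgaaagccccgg
NOP10: gaaattgacgaaCACGTGacgcggtcgggc
GAR1: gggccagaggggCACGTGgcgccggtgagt
WDR43: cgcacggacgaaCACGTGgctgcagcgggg
RRP9: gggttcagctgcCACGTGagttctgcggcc
NOP14: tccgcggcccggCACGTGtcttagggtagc
NOL6: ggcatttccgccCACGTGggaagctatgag
PES1: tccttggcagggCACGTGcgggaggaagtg
GNL3: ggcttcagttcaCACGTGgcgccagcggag
DDX21: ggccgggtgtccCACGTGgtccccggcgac
MYBBP1A: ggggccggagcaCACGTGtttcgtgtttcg

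The FBL window lies at chr19:39846356-39846385 on the minus strand, with the E-box beginning 7 bases into the transcript. The NOP10 window, at chr15:34343130-34343159 on the minus strand, has its E-box from base -11, just before the start, and a further E-box begins at base -170. GAR1 (chr4:109815781-109815810, plus strand) and WDR43 (chr2:28894658-28894687, plus strand) hold it from bases 32 and 4 of the transcript. RRP9 (chr3:51941892-51941921, minus strand) holds it from base -5. In NOL6 (chr9:33473894-33473923, minus strand), GNL3 (chr3:52686026-52686055, plus strand) and MYBBP1A (chr17:4555340-4555369, minus strand) it begins at bases 14, 7 and 28, inside the first exon. NOP14 (chr4:2963374-2963403, minus strand) and PES1 (chr22:30591880-30591909, minus strand) hold it from bases 16 and 14, and DDX21 (chr10:68956604-68956633, plus strand) from base -31. A match is a description of the letters and does not show that any factor bound there. Among other genes of the pathway the E-box was found in 12 of 34 small subunit factors and 11 of 36 pre-60S factors of the promoter set, but in 1 of 13 further genes of the RNA polymerase I machinery and 1 of 12 exosome genes.

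**Figure D1:**
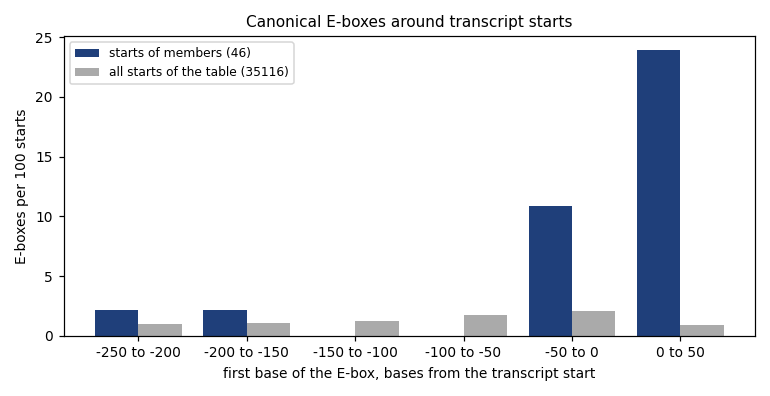
E-boxes (CACGTG) per 100 transcript starts, in bins of 50 bases from 250 bases before to 50 bases after the start; dark bars are the 46 starts of members, grey bars all 35116 starts of the promoter set. In the first 50 bases of the transcript members held 23.9 E-boxes per 100 starts against 0.888 for all starts, and in the 50 bases before it 10.9 against 2.08.

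At 24 h the members were close to equal in melatonin and DMSO. No member differed 2-fold on the log2(FPKM + 1) scale, where 4.35% of the 13582 genes that reached 1 FPKM in either library did (0.63% of protein-coding genes). Their log2 fold changes ran from -0.34 for NHP2 to 0.42 for RRP9, with a median of -0.03 beside 0.02 for all genes. Of the 42, 17 were above 0 (53.5% of all genes) and 25 below (46.5%). With TPM the split turned to 35 above and 7 below, and scaling by the summed reads on genes gave 27 above and 15 below. Centring on all genes gave 14 above and 28 below. The interval of the plain fold lay above 1 for 10 members and below 1 for 14, which are 23.8 and 33.3% of them, beside 28.2 and 22.4% of all genes. Among 10481 protein-coding genes 3614 lay above 1 and 2432 below. Such an interval leaves out 1 more readily in genes with many reads, and all genes include shallow non-coding ones. Under all 5 scalings 14 members were higher (33.3%, beside 50% of all genes) and 7 lower (16.7%, beside 28.5%), the latter being FBL, GAR1, LAS1L, NHP2, NOP10, NOP16 and UBTF.

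At 48 h more members were lower in melatonin than at 24 h on the deposited FPKM, with TPM and with the summed reads. After centring, the members below 0 were 28 at 24 h and 27 at 48 h. Without mitochondrial genes in the library size they were 24 at each time. Again no member differed 2-fold, beside 5.72% of 13805 genes (2.39% of protein-coding genes). NOP16, a factor of large subunit assembly, passed 1.5-fold, in the lower direction, as 10.0% of all genes did. The log2 fold changes ran from -0.59 for NOP16 to 0.42 for LAS1L, with a median of -0.09 beside -0.02 for all genes. With a minimum FPKM of 5 these medians were -0.09 and -0.05. Of the 42, 12 were above 0 (47.5% of all genes) and 30 below (52.5%), and the split stayed on the lower side under the scalings tried, from 10 above and 32 below with TPM to 18 above and 24 below without mitochondrial genes in the library size. The interval of the fold lay below 1 for 21 of the 42 members and above 1 for 7, or 16.7%, beside 33.1 and 29.1% of all genes. Among 10582 protein-coding genes 3861 lay below 1 and 3593 above. Under all 5 scalings 24 members were lower (57.1%, beside 46.1% of all genes) and 10 higher (23.8%, beside 43.0%). The log2 fold change was lower at 48 h than at 24 h in 30 of 42 members (71.4%), beside 55.1% of protein-coding genes.

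**Figure D2:**
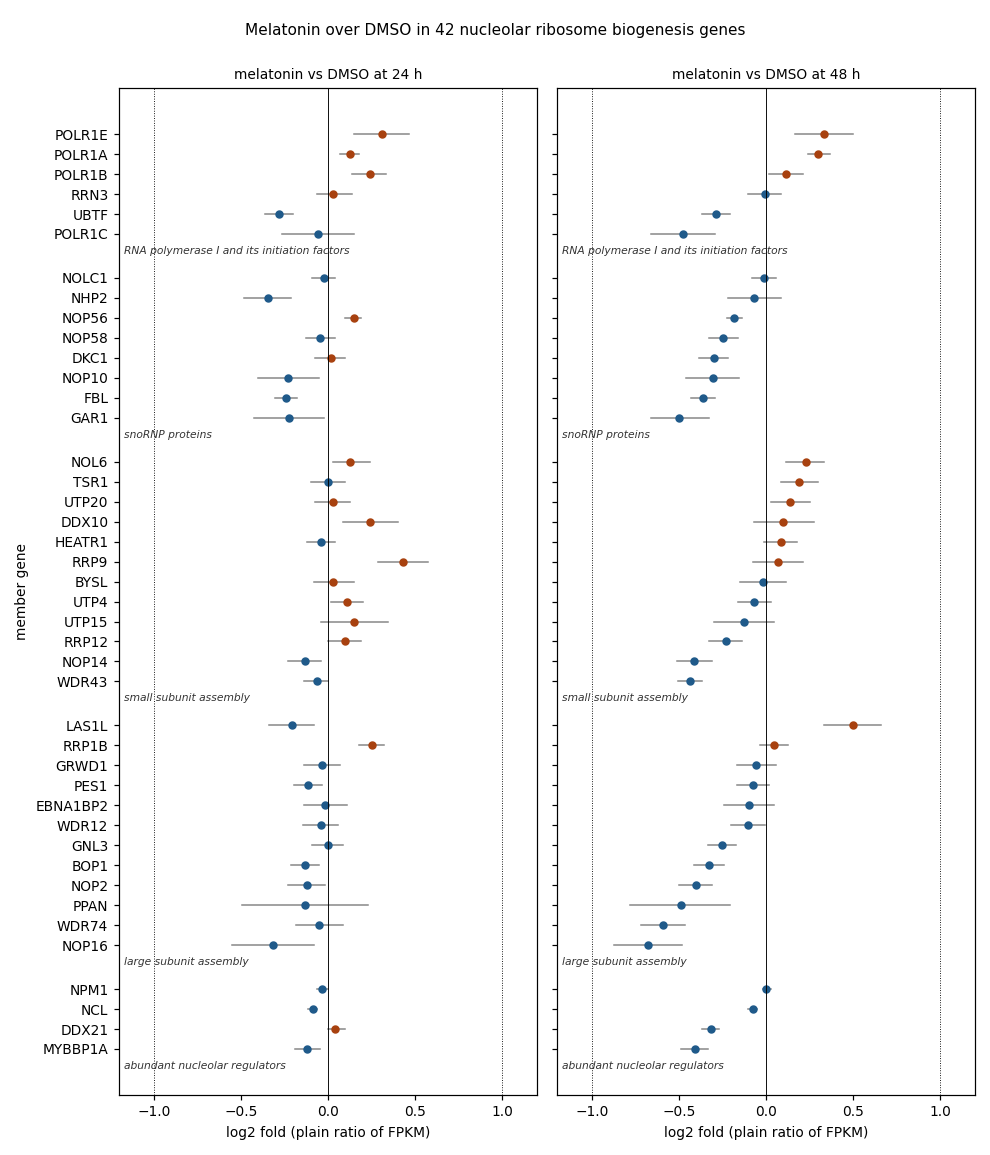
Plain fold of melatonin over DMSO (log2 axis) for the 42 members by role, at 24 h (left) and 48 h (right), sorted within a role by the 48 h value. Points are single pairs of libraries, red above 1-fold and otherwise blue, the role is written under each group, bars are 95% counting intervals and dotted lines mark 2-fold, which no member reached; all 8 snoRNP genes lay below 0 at 48 h.

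The direction was shared by both times, in 11 members under each of 5 scalings. DDX10, NOL6, POLR1A, POLR1B, POLR1E and RRP9 were higher in melatonin at 24 h and at 48 h, and FBL, GAR1, NOP10, NOP16 and UBTF were lower at both. These are 14.3 and 11.9% of the members, beside 32.8 and 15.9% of protein-coding genes. On the deposited FPKM alone, 9 members were higher at both times (21.4%, beside 37.6% of protein-coding genes) and 22 lower at both (52.4%, beside 30.1%). The melatonin comparisons of 24 h and 48 h share no library.

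Among the genes of RNA polymerase I, 3 of the 4 subunits were higher in melatonin at each time, whereas the subunit POLR1C and the architectural factor UBTF were lower (at 24 h POLR1C turned above 0 with TPM and with the summed reads). POLR1A (chr2:86020216-86106155, minus strand, hg38) encodes the largest subunit of the enzyme and was at 18.2, 19.8, 12.3 and 15.2 FPKM. It was higher in melatonin at each time, 1.09-fold (interval 1.05 to 1.13) at 24 h and 1.23-fold (1.18 to 1.29) at 48 h. POLR1B, the second largest subunit, was at 13.1, 15.5, 10.9 and 11.8 FPKM, 1.18-fold (1.10 to 1.26) and 1.08-fold (1.01 to 1.16) higher. POLR1E, which encodes an associated subunit of the enzyme, was at 12, 14.8, 9.97 and 12.5 FPKM, with folds of 1.24 (1.11 to 1.38) and 1.26 (1.12 to 1.41). For these 3 subunits melatonin was the higher library at each time, and both 48 h libraries were below melatonin 24 h.

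UBTF (chr17:44205033-44221626, minus strand), which encodes the factor UBF that shapes active ribosomal DNA, stood at 20.8, 17.1, 17.1 and 14.0 FPKM. Melatonin was 0.824-fold (0.779 to 0.870) of DMSO at 24 h and 0.819-fold (0.774 to 0.867) at 48 h, and each treatment was lower at 48 h than at 24 h by nearly the same fold, 0.825 in DMSO and 0.821 in melatonin. With TPM the log2 difference of UBTF between the DMSO libraries turned to 0.22, while melatonin stayed the lower library at each time under all 5 scalings. POLR1C, a subunit shared with RNA polymerase III, was at 6.97, 6.71, 9.27 and 6.66 FPKM, with DMSO 48 h standing above the other 3 libraries and a 48 h fold of 0.718 (0.632 to 0.815). It overlaps LRRC73, XPO5 and YIPF3 on the other strand. The counting is not stated to use strand, so reads of these genes could not be told apart. RRN3 was at 20.1, 20.5, 20.0 and 19.9 FPKM, and its intervals overlapped in all 4 libraries. RRN3 has 3 named pseudogenes, whose reads came to at most 15.6% of its own.

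The snoRNP genes were lower in melatonin at 48 h as a group. All 8 were below 0, with a median of -0.26, and 6 of them had an interval below 1, beside 52.5 and 33.1% of all genes. Among 10582 protein-coding genes 5396 were below 0 and 3861 had an interval below 1. The count of 8 held with TPM, was 7 after centring on all genes or scaled by the summed reads, and was 6 without mitochondrial genes in the library size. At 24 h 6 of 8 were below 0 (46.5% of all genes), with a median of -0.12, and 4 of 8 with TPM.

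FBL (chr19:39834458-39846414, minus strand) encodes fibrillarin, the methyltransferase of the C/D snoRNPs, and had the highest level of the group. It stood at 103, 87.2, 77.7 and 60.4 FPKM, so its highest value was in DMSO 24 h and its lowest in melatonin 48 h. The melatonin level was 0.846-fold (0.810 to 0.885) of DMSO at 24 h and 0.778-fold (0.741 to 0.817) at 48 h. NOP56 and NOP58 encode the paired core proteins of the same particle. NOP56 was at 67.7, 75.0, 76.1 and 67.0 FPKM, 1.11-fold (1.07 to 1.14) of DMSO at 24 h and 0.880-fold (0.854 to 0.907) at 48 h. NOP58 was at 37.9, 36.7, 35.1 and 29.6 FPKM, 0.969-fold (0.915 to 1.03) and 0.843-fold (0.796 to 0.893). NOP58 thus descended in the order of FBL, whereas NOP56 did not. Between the DMSO libraries FBL and NOP58 turned to 0.10 and 0.39 on the log2 scale with TPM. Melatonin 48 h was the lowest library of all 3 core genes, though for NOP56 its interval overlapped that of DMSO 24 h.

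The H/ACA particle, which turns uridine into pseudouridine, has 4 core proteins. DKC1 encodes dyskerin, its enzyme, and was at 25.6, 25.9, 28.1 and 22.8 FPKM. NHP2 was at 34.1, 26.8, 22.3 and 21.3 FPKM, and its 24 h fold of 0.786 (0.715 to 0.864) was the lowest of the 42 members at that time, while the 48 h fold was 0.954 (0.860 to 1.06). It overlaps the gene RMND5B on the other strand, and reads of RMND5B could not be told apart if the counting ignored strand. NOP10 was at 56.1, 48, 66.3 and 53.6 FPKM, lower in melatonin within each time. GAR1 was likewise lower in melatonin within each time, at 11.2, 9.54, 15.8 and 11.2 FPKM, with folds of 0.855 (0.744 to 0.984) and 0.708 (0.631 to 0.795). NHP2 thus had its highest level in DMSO 24 h, and the other 3 had theirs in DMSO 48 h. NOLC1, a chaperone of both kinds of particle, was nearly equal between treatments, at 50.1, 49.2, 36.8 and 36.5 FPKM.

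Small subunit factors were spread to both sides. At 24 h 9 of 12 were above 0 (12 with TPM, 7 after centring), and at 48 h 6 of 12, beside 53.5 and 47.5% of all genes. RRP9, a protein of the U3 snoRNP, was at 22.7, 30.7, 21.1 and 22.1 FPKM, and its melatonin 24 h library stood above the other 3. Its 24 h fold of 1.35 (1.22 to 1.49) was the highest of the members at that time, and at 48 h its interval of 0.948 to 1.16 included 1. NOL6, another early factor, was at 12, 13.1, 9.82 and 11.5 FPKM, 1.09-fold (1.02 to 1.18) and 1.17-fold (1.08 to 1.26) higher in melatonin. WDR43, which acts on the nascent precursor, was the highest of the group at 44, 42, 44.6 and 32.9 FPKM. For WDR43 the melatonin 48 h library was low and the other 3 were alike, and the 48 h fold was 0.739 (0.705 to 0.775). With TPM the log2 differences of WDR43 over time were 0.52 in DMSO and -0.07 in melatonin, so that DMSO 48 h stood apart instead. NOP14 was at 27.7, 25.3, 24.7 and 18.5 FPKM, with a 48 h fold of 0.751 (0.701 to 0.805). On the deposited FPKM, all members of the group except WDR43 and UTP15 were lower in both 48 h libraries than in both 24 h libraries. With TPM 8 of the 12 were higher at 48 h between the DMSO libraries, and 2 of the 12 between the melatonin libraries. Between the DMSO libraries TSR1, HEATR1, UTP20 and BYSL had the lowest folds of the group, 0.635 (TSR1) to 0.696 (BYSL). For UTP4, UTP15, RRP12 and DDX10 the melatonin folds lay between 1.07 and 1.18 (24 h) and between 0.852 and 1.07 (48 h).

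Large subunit factors lay mostly below 0. At 24 h 11 of 12 were below (46.5% of all genes), with a median of -0.07, though with TPM 10 of 12 were above. At 48 h 10 of 12 were below (52.5% of all genes), with a median of -0.17, and 9 to 11 under the other scalings. NOP16 (chr5:176383938-176388975, minus strand) was at 6.09, 4.89, 8.76 and 5.48 FPKM, 0.803-fold (0.682 to 0.945) of DMSO at 24 h and 0.625-fold (0.545 to 0.716) at 48 h. It overlaps the genes ARL10 and HIGD2A on the other strand, and the counting is not stated to use strand, so reads of the partners could not be told apart. WDR74 was at 11.8, 11.4, 13.8 and 9.18 FPKM, with a 48 h fold of 0.664 (0.608 to 0.724). Both had their highest level in DMSO 48 h.

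The PeBoW complex, which is needed to mature the RNA of the large subunit, is made of PES1, BOP1 and WDR12. PES1 was at 29.2, 27.0, 20.2 and 19.1 FPKM, BOP1 at 37.5, 34.2, 30.0 and 23.9 FPKM, and WDR12 at 9.23, 8.97, 8.47 and 7.88 FPKM. All 3 were in the same order, from DMSO 24 h down to melatonin 48 h, although the interval of the melatonin fold included 1 for WDR12 at 24 h and for PES1 at 48 h. That order is of the deposited FPKM, since with TPM the DMSO 48 h library stood above DMSO 24 h for BOP1 and WDR12, by 0.18 and 0.36 on the log2 scale, and melatonin 24 h stood above DMSO 24 h for all 3. GNL3, which encodes nucleostemin, was at 30.1, 30.1, 36.3 and 30.5 FPKM, so that DMSO 48 h alone stood out on this scale. With TPM GNL3 was higher at 48 h in both treatments, by 0.76 in DMSO and 0.29 in melatonin on the log2 scale. GNL3 holds 6 snoRNA genes in its introns. RRP1B was at 24.4, 29, 19.3 and 19.9 FPKM and was the one of the 12 that lay above 0 at 24 h on the deposited scale, at 1.19-fold (1.13 to 1.25).

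LAS1L (chrX:65512582-65534775, minus strand) lay apart from most of its group at 48 h. It was at 9.81, 8.49, 4.48 and 6.32 FPKM, highest in DMSO 24 h and lowest in DMSO 48 h. Its melatonin fold was 0.865 (0.791 to 0.945) at 24 h and 1.41 (1.26 to 1.58) at 48 h, the highest of the members at that time. The DMSO 48 h library, which enters the latter fold, held 549 LAS1L reads and was 0.456-fold (0.411 to 0.507) of DMSO 24 h. The other 4 members, NOP2, EBNA1BP2, PPAN and GRWD1, had 24 h folds from 0.912 to 0.988 and 48 h folds from 0.711 to 0.961. PPAN shares its locus with the readthrough gene PPAN-P2RY11, for which 0 reads were listed in every library. How reads that could belong to either gene were assigned is not stated, and the low level of PPAN may depend on it.

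Of the 4 abundant regulators NCL and NPM1 separated most by time, in opposite directions. NCL was at 226, 212, 154 and 146 FPKM and NPM1 at 210, 205, 282 and 284 FPKM, so NCL was lower and NPM1 higher in both 48 h libraries than in both 24 h libraries. Within a time the treatments were nearer to each other, with NCL at 0.940-fold and 0.947-fold and NPM1 at 0.978-fold and 1.00-fold. NPM1 has 44 named pseudogenes, whose reads came to at most 5.26% of its own, and NCL holds 3 snoRNA genes. DDX21, a helicase that links RNA polymerase I transcription to processing, was at 72.7, 75.0, 69.0 and 55.3 FPKM. MYBBP1A, a nucleolar MYB-binding protein, was at 26.3, 24.2, 24.0 and 18.1 FPKM. For DDX21 and MYBBP1A the melatonin 48 h library was the low one, at 0.802-fold (0.776 to 0.830) and 0.752-fold (0.713 to 0.792) of DMSO 48 h. Their DMSO 48 h library was also below both 24 h libraries, at 0.948-fold (0.917 to 0.98) and 0.912-fold (0.868 to 0.959) of DMSO 24 h. With TPM these DMSO differences turned to 0.43 and 0.37 on the log2 scale.

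**Figure D3:**
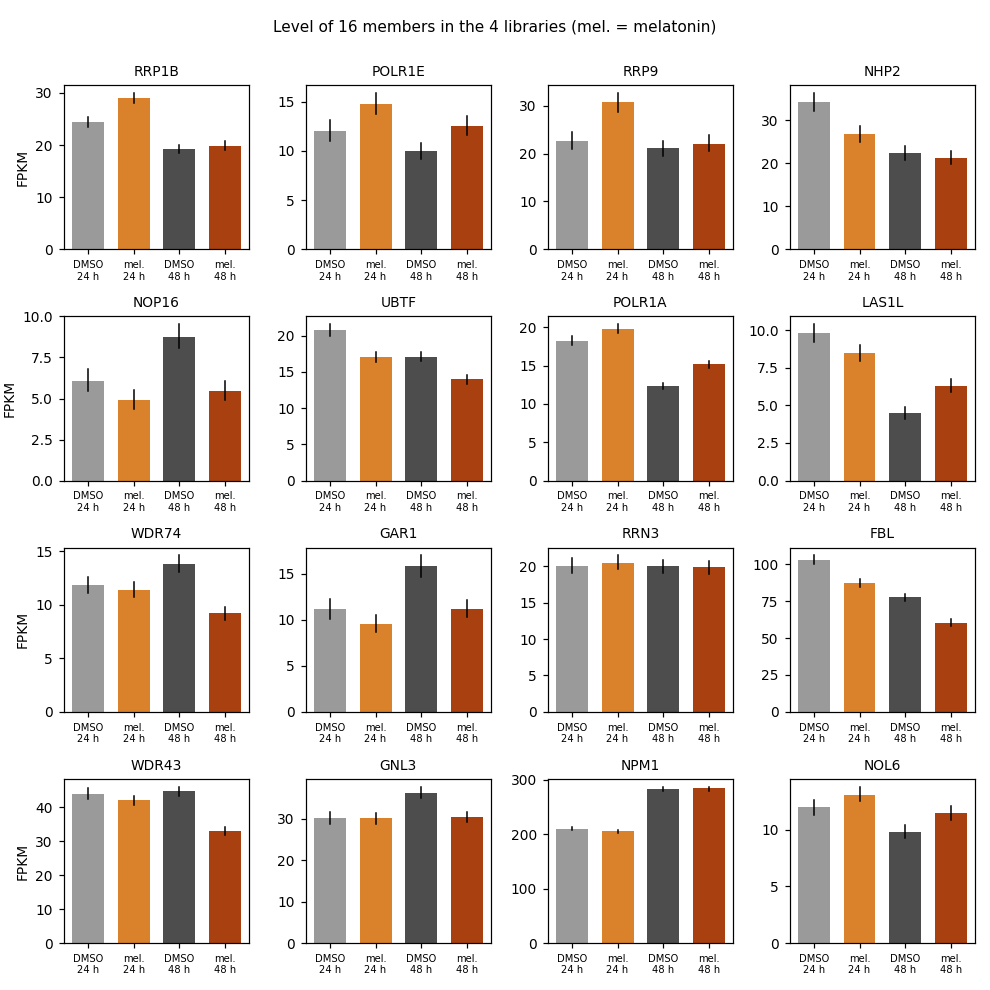
FPKM of 16 members in the 4 libraries, each panel with its own axis from 0; bars are single libraries and lines are exact 95% Poisson intervals of the reads. On this scale UBTF and FBL step down from DMSO 24 h to melatonin 48 h, NPM1 is higher in both 48 h libraries, RRN3 is level, and WDR43 is low in melatonin 48 h alone.

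Ratios between members within a library do not depend on the library size, and 3 were computed, for pairs picked after their values were seen. NPM1 over NCL was 0.930, 0.968, 1.83 and 1.94, a 1.97-fold (1.91 to 2.02) difference between the DMSO libraries and a 2.01-fold (1.95 to 2.06) difference between the melatonin libraries. UBTF over POLR1A was 1.14, 0.861, 1.39 and 0.926, lower in melatonin by 0.757-fold (0.707 to 0.810) at 24 h and 0.665-fold (0.619 to 0.715) at 48 h. FBL over NOP56 was 1.52, 1.16, 1.02 and 0.901, lower in melatonin at each time and lower at 48 h within each treatment.

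**Figure D4:**
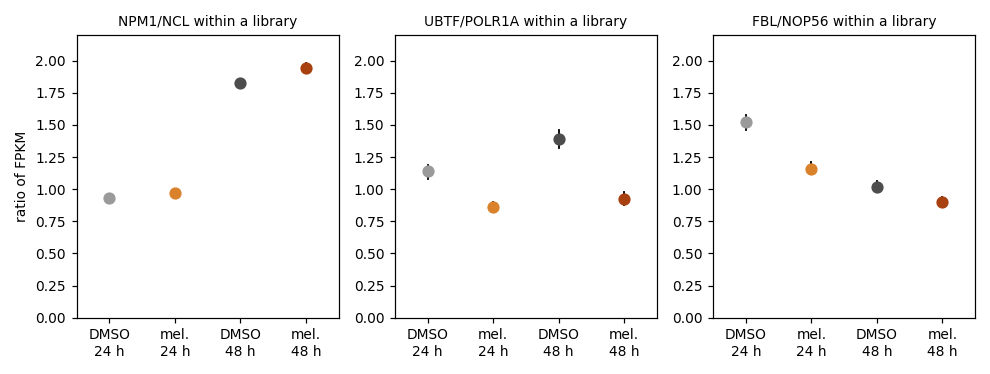
Ratio of the FPKM of a pair of members within each library (vertical axis from 0), for NPM1/NCL, UBTF/POLR1A and FBL/NOP56; points are single libraries and lines 95% counting intervals. NPM1/NCL is set apart by time, from 0.930 and 0.968 to 1.83 and 1.94, and UBTF/POLR1A by treatment, being below 1 in both melatonin libraries and above 1 in both DMSO libraries.

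Between 24 h and 48 h the members stood below other genes, by more in melatonin than in DMSO. In DMSO none differed 2-fold on the log2(FPKM + 1) scale, where LAS1L was at -0.98 (its plain fold was 0.456), beside 7.74% of 13854 genes (4.43% of protein-coding genes), and LAS1L, TSR1 and NHP2 were lower by 1.5-fold, as 12.6% of all genes were. The median was -0.15, beside 0.00 for all genes, with 13 members above 0 (50.3% of all genes) and 29 below (49.7%). The interval of the fold lay above 1 for 12 (28.6%, beside 32.5% of all genes) and below 1 for 26 (61.9%, beside 32.1%). Among 10539 protein-coding genes 3728 lay above 1 and 4010 below. In melatonin none differed 2-fold, beside 4.15% of 13489 genes (0.925% of protein-coding genes). The median was -0.35, beside -0.04 for all genes, with 7 members above 0 (45.1% of all genes) and 35 below (54.9%). The interval of the fold lay below 1 for 32 of 42 members (76.2%, beside 32.8% of all genes) and above 1 for 2 (4.76%, beside 22.4%). Among 10492 protein-coding genes 4173 lay below 1 and 2385 above. The sign of these medians depended on the scale, since TPM gave 0.34 in DMSO and -0.09 in melatonin while it moved all genes to 0.46 and 0.23. The members' median minus that of all genes was between -0.16 and -0.12 in DMSO under the 5 scalings, and between -0.33 and -0.30 in melatonin. In melatonin 27 members were lower at 48 h under all 5 scalings (64.3%, beside 26.8% of all genes), and GAR1, GNL3, NOP10, NOP16, NPM1, PPAN and UTP15 were higher (16.7%, beside 45.1%). In DMSO 10 were lower under all 5 (23.8%, beside 20.8%), namely BYSL, EBNA1BP2, HEATR1, LAS1L, NCL, NHP2, PES1, POLR1A, TSR1 and UTP20, and 13 higher (31.0%, beside 49.6%). The DMSO 48 h library is shared by this DMSO comparison and the 48 h melatonin comparison, and melatonin 24 h and 48 h likewise enter the melatonin comparisons at those times.

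Melatonin 48 h was the lowest library for 24 of the 42 members (57.1%, beside 23.9% of protein-coding genes) and the highest for 1. With TPM it was the lowest for 11, and DMSO 24 h was the lowest for 23. The reads of all members together came to 0.697, 0.688, 0.618 and 0.599% of the reads on nuclear genes, and to 0.558, 0.574, 0.557 and 0.528% of the reads on all genes.

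The genes that encode the ribosomal proteins themselves stood above the members over time. The median of 79 cytoplasmic ribosomal protein genes was 0.25 in DMSO and 0.21 in melatonin. Of them 71 and 74 were above 0, beside 50.3 and 45.1% of all genes. The members' median minus that of the ribosomal protein genes was -0.40 and -0.56 on the log2 scale. With TPM this difference was -0.41 and -0.58, but in DMSO both medians were then above 0, at 0.34 for the members and 0.76 for the ribosomal protein genes. Between melatonin and DMSO it was -0.07 at each time. The ribosomal protein genes were chosen for comparison after the values were seen.

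**Figure D5:**
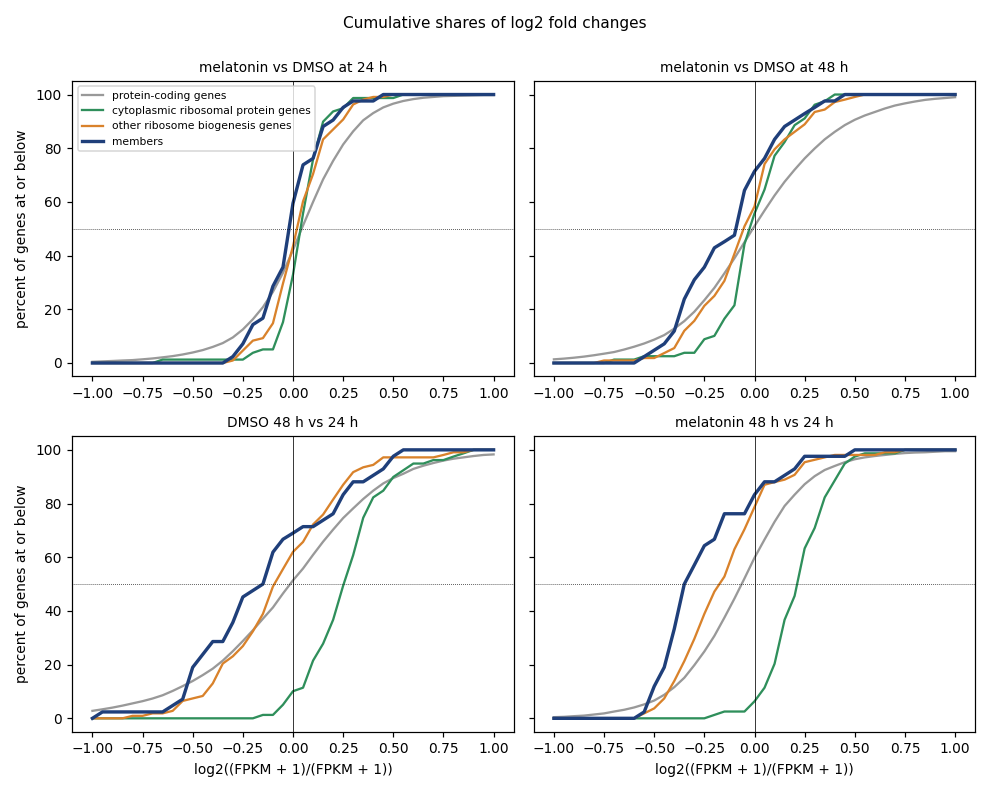
Cumulative percent of genes at or below a log2 fold change, for the members, 108 other ribosome biogenesis genes, 79 cytoplasmic ribosomal protein genes and all protein-coding genes tested, in the 4 comparisons; dotted lines mark 50%. In the lower panels the members lie to the left, with medians of -0.15 and -0.35, and the ribosomal protein genes to the right, with medians of 0.25 and 0.21.

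On the deposited FPKM, other genes of the pathway lay above the members in the median over time, and nearer to 0. Of 110 listed, 108 reached the minimum of 1 FPKM, and POLR2F and DDX47 did not. POLR2F was listed with 0, 0, 0 and 1 reads, and whether these reflect its expression or the counting was not tested. None of the 108 differed 2-fold in any of the 4 comparisons. Their medians were 0.02 and -0.05 for melatonin over DMSO at 24 h and 48 h, and -0.08 and -0.17 over time in DMSO and in melatonin. At 24 h they ran from -0.34 for TAF1D, a subunit of the selectivity factor of RNA polymerase I, to 0.48 for PWP2, a small subunit factor. At 48 h they ran from -0.79 for EXOSC5, a subunit of the RNA exosome, to 0.54 for SPATA5, which acts on pre-60S particles. The lowest and highest pre-60S factors at 24 h were MRTO4 at -0.27 and MAK16 at 0.32, and the lowest small subunit factor at 48 h was MPHOSPH10 at -0.60. TAF1D was also 0.90 and 0.75 higher at 48 h than at 24 h on the log2 scale, in DMSO and in melatonin.

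MYC was at 60.8, 70.2, 91.0 and 63.6 FPKM, with log2 fold changes for melatonin of 0.21 at 24 h and -0.51 at 48 h. All 8 tested genes of its network, MYC included, were below 0 at 48 h, beside 52.5% of all genes, with a median of -0.37. The count was 7 without mitochondrial genes in the library size, and 8 of the 9 that passed the minimum with TPM. The 8 ran from -0.69 for MXD4 to -0.03 for MXD3, the others being MYC, MAX, MXI1, MXD1, MNT and MLX. The paper describes MXI1 as a partner of the repressor SIN3B in countering MYC. The list thus holds more than genes that act with MYC, and its direction does not measure MYC activity. Between the DMSO libraries all 8 were above 0, beside 50.3% of all genes, with MYC at 0.57 and a median of 0.47. At 48 h the 16 members with an E-box had a median of -0.27, with 3 above 0, and the 20 without had a median of -0.07, with 7 above 0. At 24 h the medians were -0.04 and -0.03. Between the DMSO libraries the members with an E-box had a median of -0.13, with 11 of 16 below 0. Those without had -0.18 there, with 12 of 20 below 0. Between the melatonin libraries the medians were -0.39 and -0.28. Whether MYC had a part in the levels of the members was not tested.

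Gene length also moved with these values. Across the 42 members, which are not independent replicates, Spearman's rho of length with the log2 fold change was 0.34 at 24 h and 0.38 at 48 h, where it was 0.00 and -0.02 across all protein-coding genes. Over time it was -0.33 in DMSO and -0.16 in melatonin, beside 0.08 and 0.10. At 48 h the 21 members up to 4402 bp had a median of -0.29 and the 21 longer ones -0.06. The members share these libraries, and the part of length in their values was not tested.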

How the data were processed

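By their methods the authors made libraries of polyadenylated RNA and aligned the pairs of reads to hg38 using MapSplice 2.0.1.6, with Cufflinks for expression. The submitters' processing notes name Bowtie2 2.0.6, TopHat2 2.0.9, Cufflinks 2.1.1 and Cuffdiff 2.1.1. The authors deposited FPKM per Ensembl gene with the gene length. The product of FPKM and length came in whole steps per library for 100% of values, within 0.05 of a step, which gave the reads. The implied library sizes were 18357838, 20283332, 21930408 and 22205042, and how they were set is not given in the sources used here.

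Fold changes were log2((FPKM + 1)/(FPKM + 1)), which understates low genes, where either library reached 1 FPKM, and differences of 2-fold and 1.5-fold were counted. Folds printed with an interval are plain ratios with exact binomial (Clopper-Pearson) intervals, and levels have exact Poisson intervals. Reads are not independent molecules, so these cover counting error only. With 1 library per condition no test was made.

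The members and lists were chosen with earlier results of these data known. Members given with all 4 values by rule were the 3 highest and 3 lowest at each time, the highest by level in each role, and the 3 largest on each side at both times. The other members were named to account for all 42. EMG1, with 2 identifiers, was read from the one with more reads. Of the members, 28 overlap another gene, 21 of them on the other strand, and 8 hold 27 snoRNA genes. Protein-coding backgrounds, the length split, ratios of members, role groups and shares of genes under each scaling and the ribosomal protein genes were added after seeing the data. Scripts were tested on simulated data, with Python 3.11, numpy 2.4.6, pandas 2.3.3, scipy 1.17.1 and matplotlib 3.10.9.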

Additional observations from a re-analysis of the deposited data

Results flagged for a closer look

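In 3 members the melatonin folds of 24 h and 48 h lay on opposite sides of 1 with counting intervals that did not include it. NOP56 had log2 fold changes of 0.15 and -0.18, RRP12 of 0.09 and -0.21, and LAS1L of -0.19 and 0.42. The difference between the times was not tested, since each time has 1 library per treatment. The directions of NOP56 and LAS1L were the same under all 5 scalings at both times, as were those of RRP12.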

How the results depend on the processing

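The counts of members past 2-fold stayed at 0 in 3 of the comparisons under the other pseudocount, minimums and scalings. Between the DMSO libraries the count became 1 with a pseudocount of 0.1 (LAS1L) and 1 with TPM (PPAN). At 1.5-fold it was 1 for melatonin at 48 h and 3 between the DMSO libraries. The median of members moved with TPM to 0.14 at 24 h, 0.34 between the DMSO libraries and -0.09 between the melatonin libraries. With the plain sum of reads it was 0.00 and -0.23 for those comparisons over time. These follow from the library sizes, which shift all genes of a library together. Of 448 recomputed values of the 16 members named by rule, 75 moved by more than their counting interval, 47 with TPM, 24 with the plain sum, 3 without mitochondrial genes and 1 after centring. No paired analysis was possible because each condition has 1 library and so no replicate numbers to pair, and no replicate could be left out. A fit with additive terms for treatment and time, which would take the difference between the times as its error, was not made. Depth limits PPAN most, with 128 to 243 reads.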
